A study of Danio rerio with 4 samples.

Results

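Among the CTCF binding peaks mapped by ChIP-seq in zebrafish embryos of 24 hpf (hours after fertilisation), 2624 peaks of intermediate width had their summit far from the middle. They were selected on the deposited peak shape: a width of at least 300 and under 700 bp, with the summit at less than 0.30 or more than 0.70 of the width from the left edge, on chromosomes 1 to 25 other than 4, 18 and 22. The 2624 off-centre peaks made up 26.0% of the 10104 peaks of that width on these 22 chromosomes and 8.18% of all 32075 peaks there, in a list of 37625 peaks. The set they were compared with, called centred peaks here, held the 4913 peaks of the same width range with the summit between 0.40 and 0.60 of the width (48.6%). The other 2567 peaks of that width (25.4%) lay between these limits.

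The study comprised 2 CTCF ChIP-seq libraries and 2 libraries of input DNA. All 4 came from AB strain embryos of genotype ctcf{HPSH} at 24 hpf. Per the labels, the embryos were offspring of ctcf HA/wt fish, each replicate used 2000 of them, and an antibody against the HA epitope precipitated the tagged protein, so CTCF made from an untagged allele was not captured. Whole embryos mix all their cell types. The peak list is labelled as that of the combined replicates, so there is 1 value per peak, none per replicate or for the input. The sequencing depth is unknown.

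CTCF is a DNA-binding protein with a row of zinc fingers that reads a long, directional sequence motif. In vertebrates it halts cohesin as cohesin extrudes chromatin, and pairs of CTCF sites thereby anchor loops and borders of topological domains. The summit of a peak marks the base to which the caller assigned the binding signal's maximum, and the edges mark how far the called enrichment reaches on either side. No danRer10 sequence or annotation was used, so motifs, repeats and genes at the peaks were not analysed here.

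Summit positions of these peaks formed a central mass with a shoulder on each side. Bands of 0.05 of the width held 675 peaks at 0.30 to 0.35 and 646 at 0.25 to 0.30, and then 470 at 0.20 to 0.25, 179 at 0.15 to 0.20 and 48 at 0.10 to 0.15. On the right, 634 peaks lay at 0.65 to 0.70, followed by 655, 424, 148 and 36 in the bands up to 0.90. The counts changed little across both limits of the rule, which cut a continuous distribution. Summits lay toward the left edge in 1351 off-centre peaks and toward the right edge in 1273, which is 48.5% on the right (95% exact binomial interval 46.6 to 50.4%, for counting error only). The left and right forms mirrored each other in median width (516 and 514 bp) and in median score (360 and 381).

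**Figure D1:**
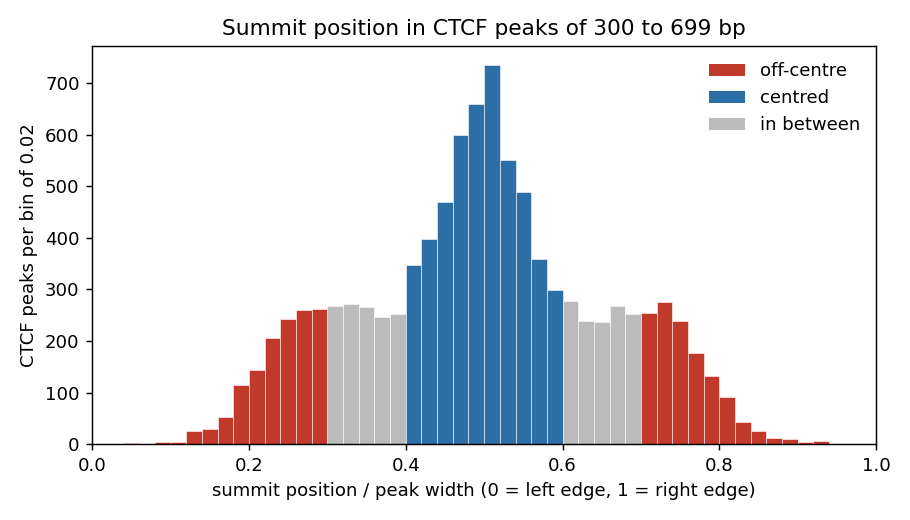
Number of CTCF peaks of at least 300 and under 700 bp (vertical axis) by summit position divided by peak width (horizontal axis, bins of 0.02), with off-centre peaks in red, centred peaks in blue and the remaining peaks in grey. The central mass of 4913 centred peaks has a shoulder on both sides, and the 1351 off-centre peaks with the summit toward the left edge and the 1273 toward the right edge form tails of like size.

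The peaks nearest to each limit of the rule were the following. At the lower limit, the last peaks inside lay on chromosome 23 (15884857 to 15885393, ratio 0.2998, score 264) and chromosome 8 (45020265 to 45020751, ratio 0.2998, score 303). The first outside, at a ratio of exactly 0.30, lay on chromosome 13 (18621656 to 18622125, score 229) and chromosome 14 (44944657 to 44945316, score 474). At the upper limit, the peaks just inside lay on chromosome 15 (1133259 to 1133875, ratio 0.7002, score 685) and chromosome 2 (55796978 to 55797554, ratio 0.7002, score 736). Those at exactly 0.70 lay on chromosome 17 (38714423 to 38714742, score 167) and chromosome 19 (8374999 to 8375318, score 185). All coordinates are danRer10, counted from 1.

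Off-centre summits were the common form among the wider of these peaks and rare among the narrow ones. The off-centre limits take in a larger part of the peak width than the centred limits do. A summit placed at random along a peak would therefore be off-centre more often than centred. Whether summits of the wider peaks depart from random placement was not tested. Of the 3356 peaks of 300 to 349 bp, 175 (5.21%) were off-centre and 2835 (84.5%) centred. At 450 to 499 bp, 393 of 982 (40.0%) were off-centre and 137 (14.0%) centred, and from 650 bp upward 347 of 522 (66.5%) were off-centre and 66 (12.6%) centred. The median width was accordingly 516 bp for off-centre peaks (quartiles 432 and 610 bp) and 340 bp for centred peaks (quartiles 316 and 382 bp). Because of this gap, the shares near another peak or a chromosome end, and the pairs of scores, were compared within 50 bp width classes. The side of the nearest neighbour and the other comparisons were not matched for width unless stated.

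Off-centre peaks had a short flank and a long one. From the summit of an off-centre peak the nearer edge was a median of 126 bp away (quartiles 101 and 149 bp) and the farther edge 386.5 bp (quartiles 325 and 458 bp). In centred peaks the nearer edge was 158 bp away (quartiles 146 and 173 bp) and the farther edge 181 bp (quartiles 169 and 211 bp). Per the labels the chromatin was sheared to 100 to 200 bp. The nearer edge was within 200 bp of the summit in 2616 of 2624 off-centre peaks (99.7%) and in 4385 of 4913 centred peaks (89.3%). The farther edge was at least 212 bp away in every off-centre peak. The rule largely fixes both results, because its width and ratio limits hold the nearer edge of off-centre peaks close to the summit. The largest distance to the nearer edge was 207 bp in off-centre and 344 bp in centred peaks. A link with fragment length was not tested. In the 20564 peaks under 300 bp on the same chromosomes the nearer edge was closer, at a median of 102 bp (quartiles 89 and 116 bp). Their width itself limits this distance, which was at most 149 bp.

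Across the width classes both flanks of off-centre peaks lengthened, the long one by more bp but in a like proportion. The median distance to the nearer edge was 81 bp at 300 to 349 bp of width, 121 bp at 450 to 499 bp and 162 bp from 650 bp upward. The median distance to the farther edge in the same classes was 249, 353 and 513 bp. Centred peaks of 650 bp and more instead had their edges at medians of 298 and 370.5 bp. These distances are fixed in part by the rule and are given as a description, without a test.

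**Figure D2:**
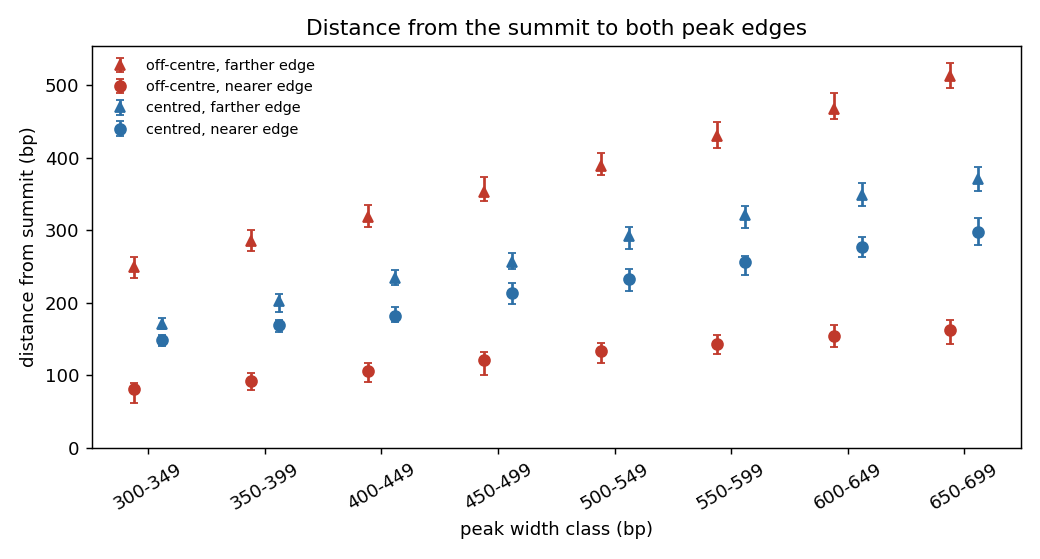
Distance in bp from the summit to the nearer edge (circles) and the farther edge (triangles), by peak width class in bp, for off-centre peaks (red, left in each class) and centred peaks (blue), as medians with quartiles. From the narrowest to the widest class the median nearer edge of off-centre peaks moves from 81 to 162 bp and the farther edge from 249 to 513 bp.

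The most extreme members had their summit almost on an edge and were weak. On chromosome 7 (71119327 to 71119636) the summit lay 11 bp from the left edge and 298 bp from the right, with a score of 110. On chromosome 11 (40474563 to 40474949) these distances were 16 and 370 bp, with a score of 139. At the other extreme, a peak on chromosome 23 (34820060 to 34820433, score 110) had its summit 12 bp from the right edge and 361 bp from the left, and one on chromosome 13 (45650284 to 45650662, score 128) had 22 bp on the right and 356 bp on the left. Only 20 members had the summit within 0.10 of the width from an edge, with a median score of 133.5. The median score was 259 for the 411 members between 0.10 and 0.20 and 401 for the 2193 members between 0.20 and 0.30. Median width rose along the same steps, from 378.5 bp for the 20 members to 482 and then 520 bp. Whether score differed with summit position at equal width was not tested. The score is the authors' whole-number peak score, whose scale is not stated, so it is used only to rank and describe peaks within the list.

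Off-centre peaks scored lower than centred peaks. Their scores ran from 95 to 3088 with a median of 369 (quartiles 250 and 561.25), against a range of 112 to 11089 and a median of 576 (quartiles 394 and 769) for centred peaks. The ranges overlapped widely. Over the whole list the median score was also 369. It was 464 for peaks of this width that lay between the limits and 331 for peaks under 300 bp on the same chromosomes. Scores over 1000 were held by 95 off-centre peaks (3.62%) and 442 centred peaks (9.00%), and scores under 200 by 373 off-centre peaks (14.2%) and 147 centred peaks (2.99%). The median of the off-centre peaks was the lower one on 22 of 22 chromosomes, with medians of 329 to 447 for off-centre and 531 to 613.5 for centred peaks. Score, edges and summit come from the same peak calling, so this difference is a description and was not tested. None of these values was matched for width.

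The difference between the medians, off-centre minus centred, was -361 in the narrowest class, -420 at 450 to 499 bp, -234 at 500 to 549 bp and -33 in the widest class, so it narrowed only from 500 bp upward. At 300 to 349 bp the median was 172 for off-centre and 533 for centred peaks, and the quartiles of the off-centre peaks (138 and 237) lay wholly below those of the centred peaks (367 and 706). At 450 to 499 bp the medians were 335 for off-centre and 755 for centred peaks. At 600 to 649 bp they were 561 and 666.5, and from 650 bp upward 619 and 652, with quartiles of 450 and 847.5 for off-centre peaks inside those of the centred peaks (377 and 925). Within a chromosome and a width class, the off-centre peak had the higher score in 25.5 ± 7.16% of pairs of 1 off-centre and 1 centred peak (SD, n = 22 chromosomes). That share ran from 10.4% on chromosome 20 to 37.7% on chromosome 13. Among the 436 members narrower than 400 bp it was 5.21%, and among the 2188 wider ones 29.5%.

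**Figure D3:**
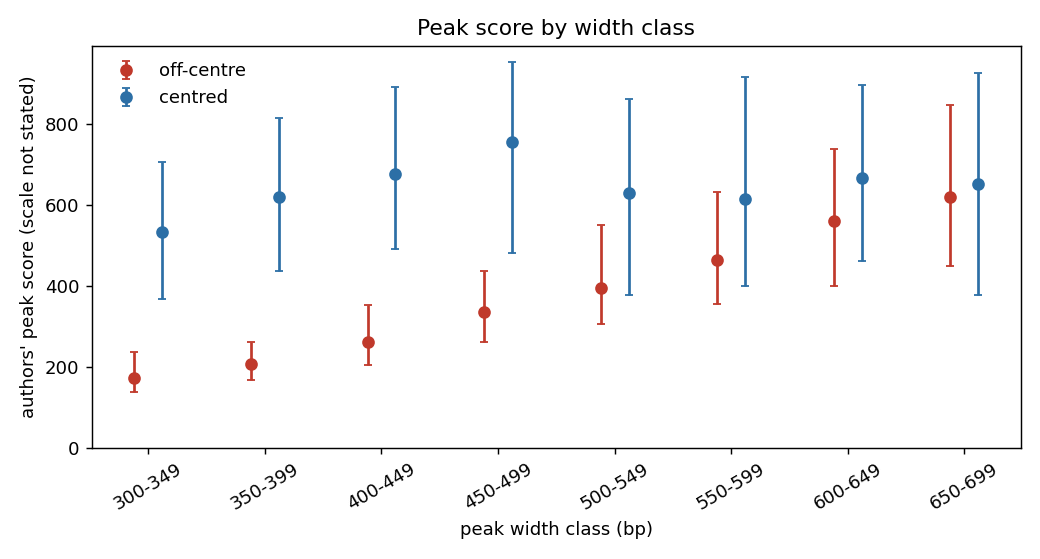
The authors' peak score (vertical axis, scale not stated) by peak width class in bp, for off-centre peaks (red, left in each class) and centred peaks (blue), as medians with quartiles. Off-centre medians climb with width, 172 in the narrowest class and 619 in the widest, while centred medians stay between 533 and 755.

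Score and shape were tied more closely within the off-centre peaks than within the centred ones. Across the 2624 off-centre peaks Spearman's rho of score was 0.673 with width, 0.717 with the distance to the nearer edge and 0.587 with the distance to the farther edge. Across the 4913 centred peaks the same values were 0.204, 0.265 and 0.119. These describe peaks of 1 list that share libraries and caller. Widths also varied more among off-centre peaks (interquartile range 178 bp) than among centred peaks (66 bp).

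The 4 highest-scoring members with the summit to the left and the 4 with the summit to the right were together the 8 highest of all 2624. The top score of 3088 belonged to a peak on chromosome 7 (34195677 to 34196245), whose summit lay 156 bp from the left and 412 bp from the right edge. With the summit to the left there followed peaks on chromosome 21 (42248565 to 42249217, score 2169), chromosome 15 (3644412 to 3645086, score 1634) and chromosome 6 (58763526 to 58764192, score 1586). With the summit to the right, the highest were on chromosome 24 (42053611 to 42054256, score 2010) and chromosome 9 (25555256 to 25555761, score 1934). Next on that side came chromosome 15 (24359159 to 24359780, score 1681) and chromosome 19 (81973 to 82547, score 1674).

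On the short side these strong members had 146 to 196 bp, above the median of 126 bp for all off-centre peaks. On the long side they had 359 to 491 bp, against a median of 386.5 bp. The nearest peak was over 10 kb away for 4 of them and between 1309 and 3531 bp away for the other 4. Nearest neighbours were weaker in all 8 cases, with scores of 197 to 675. Choosing the highest scores made this nearly certain, as 95% of all peaks in the list scored at most 911. Around the top peak on chromosome 7 the list held no other within 13927 bp on the short side and 48212 bp on the long side.

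No preference of neighbouring peaks for either flank passed the test. The nearest other peak, by the gap between edges, was on the long side for 1341 off-centre peaks and on the short side for 1283, or 51.1% on the long side (95% exact binomial interval 49.2 to 53.0%). Averaged over chromosomes the share was 51.1 ± 4.97% (SD, n = 22), above 50% on 12 and below on 10 (two-sided sign-flip permutation test over chromosomes, p = 0.307, adjusted p = 0.461 over 6 tests). For centred peaks, taking the slightly longer flank, it was 50.1 ± 4.10%. The difference, off-centre minus centred, was 0.98 ± 7.59 percentage points, above 0 on 13 chromosomes (permutation p = 0.553, adjusted p = 0.553). This comparison was not matched for width. Chromosomes varied between 41.4% on chromosome 8 and 59.8% on chromosome 21.

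**Figure D4:**
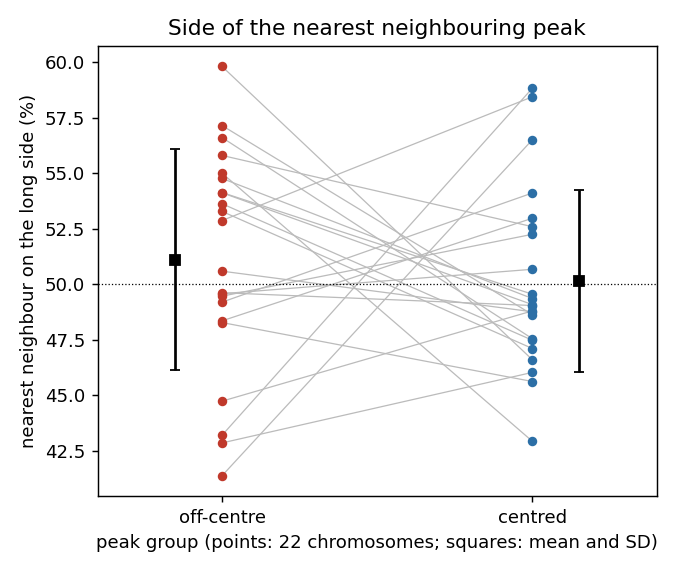
Percentage of peaks whose nearest neighbouring peak lies on the side of the farther edge, for off-centre peaks (red, left) and centred peaks (blue), with 1 point per chromosome joined by a line, squares with bars for mean and SD over 22 chromosomes, and a dotted line at 50%. Means of 51.1% and 50.1% lie within the spread over chromosomes, and lines run in both directions. Centred peaks are not weighted by width here.

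Nor did a preference among close neighbours. A gap of at most 2 kb separated 714 off-centre peaks (27.2%) from their nearest neighbour, which was on the long side in 368 cases and on the short side in 346. Over chromosomes this was 52.1 ± 8.89% on the long side (permutation p = 0.290, adjusted p = 0.461), above 50% on 12, below on 7 and equal on 3. Among the 364 members with a neighbour within 500 bp the split was 184 to 180. The median gap was 16546 bp on the long side and 16176 bp on the short side.

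The reach of the long flank had similar medians with and without a neighbour beyond it. The farther edge was a median of 389.5 bp from the summit in the 198 members with a peak within 500 bp on that side, 385 bp in the 196 with a peak within 500 bp on the short side and 389 bp in the 1910 with none within 2 kb. In the 184 members with no neighbour within 50 kb it was 384 bp. The nearer edge of these isolated members was at a median of 125 bp. The rule's width and ratio limits confine the farther edge, which lay 212 to 612 bp from the summit in all members. Median widths of the 4 sets were also alike, between 503.5 and 519.5 bp. Similar medians were thus largely fixed by the rule, and a link with neighbours was not tested.

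Measured from summit to summit, the count turned the other way: 45.4% of members with a summit within 2 kb had it on the long side (permutation p = 0.0576, unadjusted). This distance includes the member's own flank, a median of 386.5 bp on the long side and 126 bp on the short side. The gap between edges leaves these flanks out, so the side of the nearest neighbour depends on the measure. Whether flank length accounts for the turn was not tested. The smallest gaps were 104 bp, near the list's own minimum of 101 bp. One such pair consisted of 2 off-centre peaks on chromosome 14, at 14607087 to 14607771 (score 366) and 14607876 to 14608459 (score 621), both with the summit toward the left, so that the long flank of the first met the short flank of the second. A member on chromosome 3 (42543707 to 42544386, score 864) had peaks 104 bp away on its long side and 124 bp away on its short side. The next smallest gap on a long side, 104 bp, was on chromosome 14 (18150739 to 18151307, score 321). On the short side, 106 and 109 bp separated neighbours from members on chromosome 16 (16904361 to 16905037, score 485, and 15664492 to 15664984, score 231).

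Some off-centre peaks were next to each other. For 423 of them (16.1%) the next peak on at least 1 side was also off-centre. Off-centre peaks were 8.18% of all peaks on these chromosomes, and a peak has up to 2 neighbours. The 16.1% is therefore close to what independent placement would give, and clustering was not tested. The 423 peaks formed 220 adjacent pairs. The long flanks faced each other in 49 of these pairs, the short flanks in 51, and both peaks leaned the same way in 120. Of the 37 pairs within 2 kb, 7 had facing long flanks, 7 facing short flanks and 23 the same direction. With independent sides about 50% of pairs would lean the same way, and these splits were not tested.

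The frequency of close neighbours did not differ detectably from that of centred peaks. Within 2 kb of another peak lay 27.1 ± 4.05% of off-centre peaks and 29.1 ± 6.85% of centred peaks weighted to the same widths (SD, n = 22 chromosomes). The difference was -1.99 ± 7.63 percentage points, below 0 on 15 chromosomes, and did not pass the test (permutation p = 0.234, adjusted p = 0.461). Without width matching its sign turned, to 0.76 points. The nearest neighbours had median scores of 365 for off-centre and 370 for centred peaks. Off-centre peaks were outscored by their nearest neighbour in 1358 cases (51.8%), against 1411 cases (28.7%) for centred peaks. The peaks' own median scores were 369 and 576, so this contrast restates the score difference and was not matched for score.

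Off-centre peaks were less often near chromosome ends than centred peaks weighted to the same widths. Within 2 Mb of an end, taken as the first base or the end of the last peak, lay 17.7 ± 4.20% of off-centre peaks and 22.9 ± 6.61% of width-matched centred peaks (SD, n = 22 chromosomes, 2612 members with a centred peak of their class). The difference was -5.12 ± 6.62 percentage points, below 0 on 18 of 22 chromosomes (two-sided sign-flip permutation test, p = 0.00159, adjusted p = 0.00954). Wide centred peaks were few, and from 650 bp upward 66 of them over all 22 chromosomes were weighted to 347 members. Pooled over chromosomes, the direction was not shared by all width classes. Off-centre peaks had the higher share at 300 to 349 bp (20.0% against 18.9%) and from 650 bp upward (18.7% against 18.2%). They had the lower share in every class between, most of all at 450 to 499 bp (16.5% of 393 against 29.2% of 137). No single 50 bp class was tested. Without width matching the difference was -3.03 points (permutation p = 0.00359, unadjusted). Matching on score in 10 classes in place of width, which was chosen after the data had been seen, left 17.8% of off-centre and 17.9% of centred peaks, a difference of -0.13 points (permutation p = 0.897). Width and score were not matched together.

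The position of both sets was also set out by score. In the lowest-scoring 25% of the peaks of this width, 15.6% of 1074 off-centre and 13.3% of 758 centred peaks lay within 2 Mb of an end. In the highest-scoring 25% it was 17.8% of 376 off-centre and 23.3% of 1577 centred peaks. At scores of 324 to 490 it was 19.0% of off-centre and 20.0% of centred peaks, and at 491 to 705 it was 20.7 and 22.3%. The share of centred peaks near ends thus rose with each score class. That of off-centre peaks rose up to a score of 705 and was lower in the highest class, where the sets lay farthest apart. These shares were not tested.

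**Figure D5:**
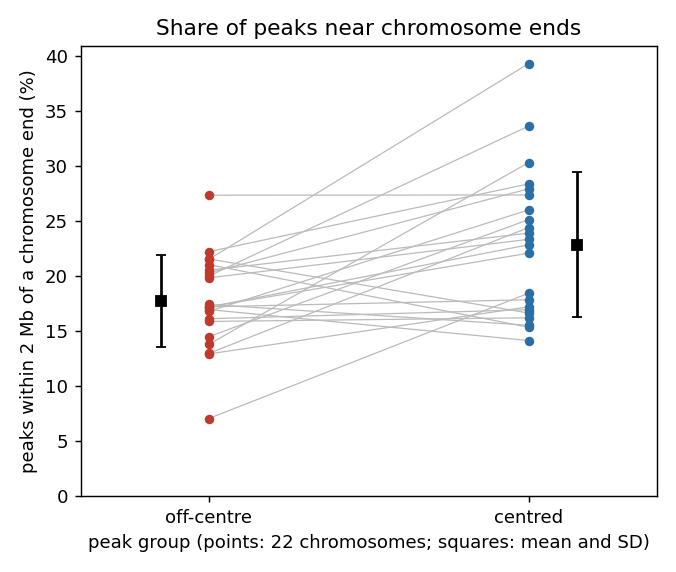
Percentage of peaks within 2 Mb of a chromosome end, for off-centre peaks (red, left) and centred peaks weighted to the same widths (blue), with 1 point per chromosome joined by a line and squares with bars for mean and SD over 22 chromosomes. Off-centre peaks are lower on 18 of 22 chromosomes, with means of 17.7% and 22.9%, and matching on score in place of width leaves 17.8% and 17.9%.

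Along the chromosomes, off-centre peaks made up 20.9% of the peaks of this width in the outermost megabase (256 of 1227), 26.8% at 1 to 2 Mb, 25.4% at 2 to 5 Mb, 27.2% at 5 to 10 Mb, 27.8% at 10 to 15 Mb and 26.4% farther in. In these shares, matched for neither width nor score, the lower one was in the outermost megabase. Matched for width, the difference from centred peaks was -3.73 points within 1 Mb of an end and -5.12 points within 2 Mb. The median score of off-centre peaks was 405 within 1 Mb of an end and 335 beyond 15 Mb, and that of centred peaks was 617 and 545 in the same places. The long flank pointed toward the nearer chromosome end in 49.1 ± 4.70% of members (SD, n = 22, permutation p = 0.398, adjusted p = 0.477), above 50% on 8 chromosomes, below on 12 and equal on 2.

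Each of the 22 chromosomes carried off-centre peaks. Their share of the peaks of this width was 25.9 ± 2.53% (SD, n = 22), lowest on chromosome 23 at 20.9% and highest on chromosome 16 at 31.1%. Chromosome 16 also held the most, 170, and the highest density, 3.07 per Mb, and chromosome 7 the lowest density, 1.54 per Mb. The fullest 1 Mb bins held 14 members each, at 73000001 to 74000000 on chromosome 7 (of 31 peaks of this width) and 43000001 to 44000000 on chromosome 21 (of 24). These bins were chosen after their values were seen.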

How the data were processed

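The values used were 1 list of peaks in narrowPeak layout, of combined ChIP replicates per the file headers. It gives start, end, summit offset and the authors' deposited score (scale not stated), and its signal, p and q columns were 0 throughout. The submitters' processing notes name MACS2, Bowtie2 2.2.5, deepTools 3.0.1, Picard 1.45, SAMtools 1.1, cutadapt 1.3, FastQC 0.9.3, CASAVA and the build danRer10, without saying what each did. The calling threshold and how the input was used were not given in the sources used here. Depth is unknown, and intervals cover counting error only.

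Peaks were placed by their centre and neighbours taken from all peaks of a chromosome. Centred peaks were weighted to the off-centre peaks' counts in 50 bp width classes within each chromosome, and members with no centred peak in their class were left out of those values. Tests were two-sided sign-flip permutations over 22 chromosomes (100000 resamples), with Benjamini-Hochberg adjustment over 6 tests. A trial on simulated sides and end positions, drawn independently for each peak, checked only the size of the estimates. The tests measure the spread between chromosomes, not between embryos. Members, limits and comparisons were chosen with earlier results of these data known. The peaks named are the 4 highest-scoring on each summit side, the 2 lowest and 2 highest ratios, the 3 smallest gaps on each flank and the 2 peaks on each side of each ratio limit. Python 3.11.15, numpy 2.4.6, scipy 1.17.1, pandas 2.3.3 and matplotlib 3.10.9 were used.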

Additional observations from a re-analysis of the deposited data

Results flagged for a closer look

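Peaks of the same shape also occurred in sequence that the comparisons left out. Chromosomes 4, 18 and 22 held 360 off-centre peaks among 1437 peaks of at least 300 and under 700 bp (25.1%, 95% exact binomial interval 22.8 to 27.4%), with a median score of 344 and 181 summits toward the left. The unplaced scaffolds held 90 among 402 (22.4%, interval 18.4 to 26.8%), with a median score of 387 and 51 summits toward the left. Both sets had a median width of 516 bp, as had the 2624 peaks of the other chromosomes.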

How the results depend on the processing

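Of 61 alternatives to the results, other than leaving out single chromosomes, 48 were classed as unchanged. Tested results in that class kept their direction and side of the 0.05 threshold (unadjusted). Score shares in it stayed within the spread, and counts within a fold limit. The count of 2624 was 1316 for ratios below 0.25 or above 0.75, 436 for widths under 400 bp and 1317 for peaks at or above the list's median score of 369, each by construction. It was 3931 for ratios below 0.35 or above 0.65 and 2188 for widths from 400 bp, both classed as unchanged. The share of pairs in which the off-centre peak scored higher was 5.21% for widths under 400 bp. Matching on score ended the difference at chromosome ends (-0.13 points, permutation p = 0.897); under the 9 other alternatives it lay between -8.24 and -3.03 points, and without single chromosomes between -5.63 and -4.52. Directions that never passed the test turned in 8 cases. Summit distances include the member's own flank, which is longer on the long side, and gaps between edges leave it out. For none of the turns was the cause tested. With summit distances the nearest neighbour was on the long side -0.20 points from 50% for all gaps, -0.27 against centred peaks and -4.57 within 2 kb, and within 1 kb by edges it was -0.25. The share with a close neighbour turned to 1.13 points for widths under 400 bp and 0.76 without width matching. The long side faced the nearer end 2.43 points above 50% for widths under 400 bp and 0.33 for peaks at or above the median score. No paired analysis was possible because the list gives 1 value per peak for the combined replicates. Depth is unknown, and a flank's length depends on the caller's unstated threshold.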
